A study of Saccharomyces cerevisiae with 12 samples.

Results

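The 10 histone genes of budding yeast were examined nucleosome by nucleosome in cells with intact and altered Ioc3. They were chosen by name from the 6002 nuclear protein-coding genes of the sacCer3 gene table. The core genes are HTA1 and HTA2 (histone H2A), HTB1 and HTB2 (H2B), HHT1 and HHT2 (H3), and HHF1 and HHF2 (H4). HHO1, the linker histone gene, and HTZ1, the gene of the H2A variant H2A.Z, complete the set. Each gene was followed from 800 bp before its start codon to 200 bp after its stop codon. These windows held 74 of the 85038 consensus nucleosome positions of the genome. Of the 74, 56 were matched in all 6 nucleosome lists and could be tested, a share of 75.7% against 80.5% genome-wide. Another 4 of the 74 were matched in no list and 14 in 1 to 5 lists.

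Core histones wrap DNA in nucleosomes, and yeast keeps their genes as divergent couples, each sharing a promoter between an H2A and an H2B gene or between an H3 and an H4 gene. The core genes are transcribed in a burst around S phase, driven by Spt10 and the SBF and MBF factors, and the HIR complex with Asf1 and Rtt106 keeps most of them low in the rest of the cycle. HTZ1 and HHO1 are not divergent from another histone gene, and H2A.Z is deposited beside promoters by the SWR1 complex.

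The study asked where nucleosomes sit when Ioc3, the subunit that defines the ISW1a remodeler, is missing or mutated. ISW1a slides nucleosomes and sets their spacing. The strain was BY4741 (a laboratory haploid), grown in YPD at 30 °C to mid-log phase, so cells of all cycle stages were mixed. Chromatin was cut with micrococcal nuclease, which digests the DNA between nucleosomes, at 600, 1200 and 2400 gel unit per ml, and the protected DNA was sequenced.

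There were 12 samples, as 2 biological replicates for each of 6 groups. Of the groups, 3 were named WT1, WT2 and WT3 and had the wild-type genotype. The other groups were Ioc3-KO, Ioc3-R739E/R742E (2 arginines changed to glutamate) and Ioc3-Q251K/D252K (a glutamine and an aspartate changed to lysine). The replicates of each group had been joined in 1 list, so each group is 1 pool, wild type has n = 3 pools and each Ioc3 genotype has 1. The labels do not say whether a genotype rests on more than 1 clone.

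The pools carried 10282804 to 10350515 assigned reads, and the median nucleosome held from 133 to 139 of them. The median fuzziness, the standard deviation of read positions within a nucleosome, was 33.2 bp in Ioc3-KO, 32.5 bp in Ioc3-R739E/R742E, 32.3 bp in Ioc3-Q251K/D252K and 31.5 to 31.9 bp in wild type. At IOC3 itself, wild-type pools listed 16, 16 and 18 nucleosomes with 2392, 2426 and 2570 reads. The Ioc3-KO pool listed 5 nucleosomes with 825 reads there, and both point-mutant pools listed 16, with 2355 reads in Ioc3-R739E/R742E and 2228 in Ioc3-Q251K/D252K. The lists carry no bases, so the point mutations were not checked. The histone windows held 66, 65 and 65 listed nucleosomes in WT1, WT2 and WT3, 68 in Ioc3-KO, 67 in Ioc3-R739E/R742E and 71 in Ioc3-Q251K/D252K.

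**Figure D1:**
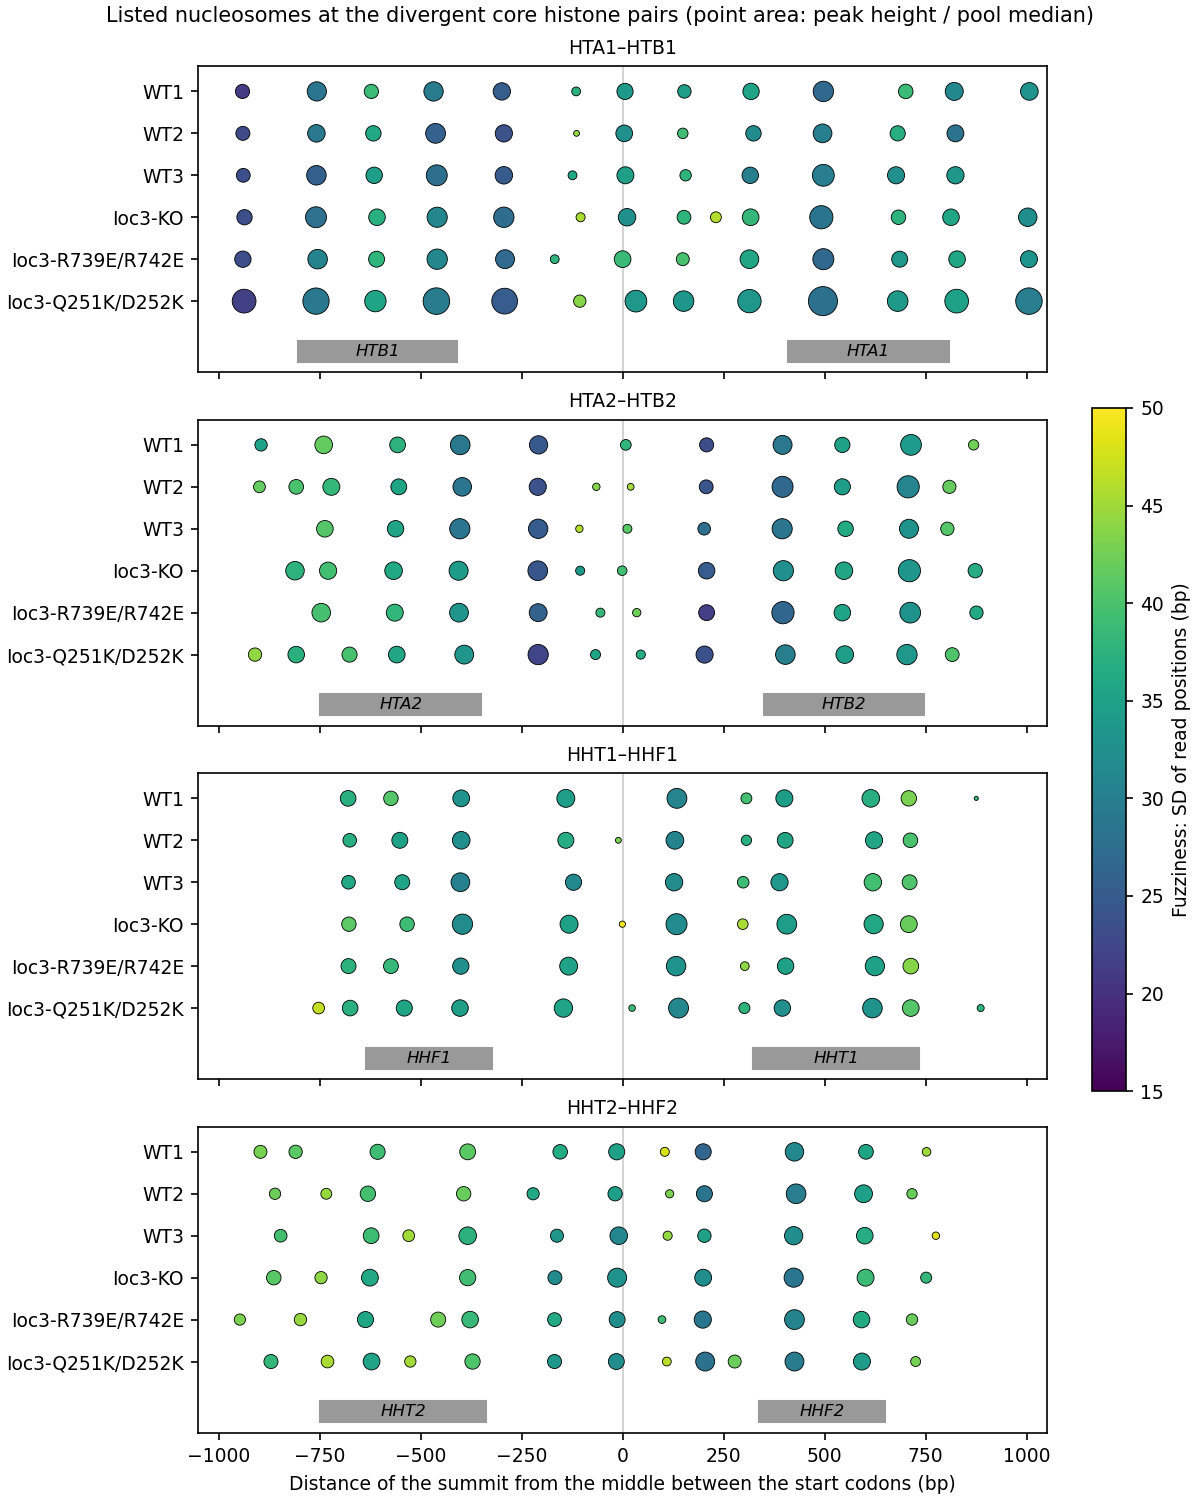
Nucleosomes listed at the 4 divergent core histone promoters, by distance of the summit from the middle between both start codons (x axis, bp) and by pool (y axis). Point area is the peak height over the pool's median, colour is fuzziness in bp and grey boxes are coding regions. The rows line up from pool to pool, and the middle of HTA2–HTB2 and HHT1–HHF1 holds small points or none, while that of HTA1–HTB1 holds a larger one.

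HTB1 (YDR224C, IV:914317-914712, minus strand) and HTA1 (YDR225W, IV:915530-915928, plus strand) are divergent, with 817 bp between their start codons. In wild type a nucleosome sat close to each start codon. The HTB1 nucleosome at -115 bp from its start codon had a peak height of 1.43, 1.44 and 1.46 in the 3 wild-type pools. That of HTA1 at -92 bp was at 1.27, 1.15 and 1.29. The stretch between them was not empty. It held a nucleosome at -401 bp from HTA1 (height 1.24, 1.35 and 1.38), a weaker one at -257 bp (0.856, 0.537 and 0.619) and a faint call at -296 bp from HTB1 (0.369, 0.166 and 0.379). Of all nucleosomes listed in wild type, 4.45% had a lower peak than that faint call (mean of the 3 pools). The coding region of HTB1 held 3 nucleosomes in each of the 6 pools and that of HTA1 held 2. The HTA1 nucleosomes were 204, 186 and 180 bp apart in wild type, a wider spacing than in 99.4% of genes, where the median was about 159 bp (159.4 to 159.6 bp per pool). At HTA1 this is 1 distance per pool. The median gene held 8 coding nucleosomes, and its spacing is a mean of more distances, so the rank does not compare like with like.

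HTA2 (YBL003C, II:235394-235792, minus strand) and HTB2 (YBL002W, II:236492-236887, plus strand) are the second H2A and H2B couple, with 699 bp between their start codons. Here the nucleosomes facing the promoter sat at -141 bp of HTA2 and at -144 bp of HTB2. The HTA2 nucleosome was the higher, at 1.58, 1.43 and 1.79 in wild type against 0.945, 0.929 and 0.758 for that of HTB2. Between them lay a faint call at -333 bp from HTB2 (0.544, 0.226 and 0.381) and, in 5 of the 6 pools, another at -283 bp from HTA2. Both coding regions held 3 nucleosomes in every pool.

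HHF1 (YBR009C, II:255373-255684, minus strand) and HHT1 (YBR010W, II:256331-256741, plus strand) have 646 bp between their start codons. Nucleosomes sat at -187 bp of HHF1 and -191 bp of HHT1. The widest distance between neighbouring summits was 275, 259 and 280 bp in wild type, wider than in 94.6% of genes. In WT1 it lay between these promoter nucleosomes, and in WT2, WT3 and the 3 Ioc3 pools it spanned the start codon of HHF1 (-183 to 76 bp in WT2 and -202 to 78 bp in WT3). Between the promoter nucleosomes a very faint call with 21 to 32 reads was listed in WT2, Ioc3-KO and Ioc3-Q251K/D252K, at heights of 0.170, 0.171 and 0.198, and not in the other pools. HHT1 also had a low nucleosome right at its start codon, at -21 bp (0.563, 0.517 and 0.642).

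HHT2 (YNL031C, XIV:575640-576050, minus strand) and HHF2 (YNL030W, XIV:576727-577038, plus strand) have 676 bp between their start codons. A clear nucleosome sat near the middle of their promoter, at -324 bp from HHT2, with heights of 1.23, 0.992 and 1.48. It was flanked by nucleosomes at -174 bp of HHT2 (-184, -117 and -176 bp in wild type) and -137 bp of HHF2. A faint call at -230 bp of HHF2 lay between the middle nucleosome and the HHF2 flank in every pool but Ioc3-KO. Its heights were 0.385, 0.325 and 0.400 in wild type. HHT2 was the least ordered of the core genes, with 2, 3 and 3 coding nucleosomes in wild type, 3 in Ioc3-KO, 3 in Ioc3-R739E/R742E and 4 in Ioc3-Q251K/D252K. The coding sequences of the 2 H3 genes are close copies, as are those of the 2 H4 genes and of the H2A and H2B copies. How reads that fit both copies were placed is not given in the sources used here, so values inside these coding regions are uncertain to that extent.

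**Figure D2:**
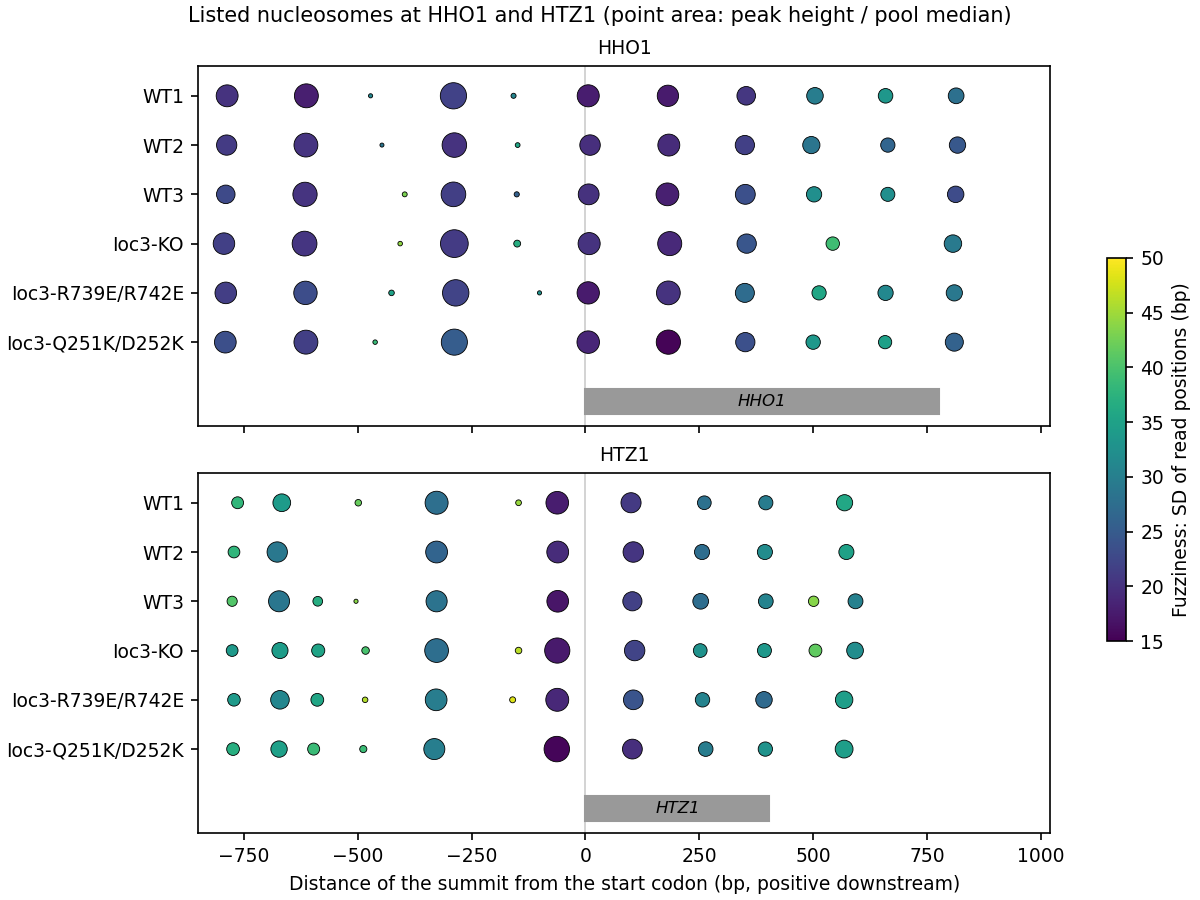
Nucleosomes listed at HHO1 and HTZ1, by distance of the summit from the start codon (x axis, bp, positive downstream) and by pool (y axis), with point area and colour as in the maps of the core couples. Ioc3-KO alone lists 4 coding nucleosomes at HHO1, where the other pools list 5, and the point near -590 bp of HTZ1 is listed in WT3 and the 3 Ioc3 pools.

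HHO1 (YPL127C, XVI:308828-309604, minus strand) shares a 605 bp promoter with NAN1, a gene of rRNA processing that runs the other way. A single tall nucleosome stood inside it at -288 bp, with wild-type heights of 3.26, 2.92 and 2.90, above 98.9% of listed nucleosomes. On either side were only faint calls of 6 to 22 reads, near -151 and -452 bp. The coding region began with a sharp array: the nucleosomes at 7, 182 and 351 bp had a fuzziness of 17.9, 17.5 and 20.6 bp in WT1.

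HTZ1 (YOL012C, XV:303579-303983, minus strand) has 1365 bp up to PLB3, a phospholipase gene on the other strand. Its nucleosome at -62 bp was among the sharpest of the genome. The fuzziness there was 17.8, 19.3 and 17.0 bp in wild type, and 2.46% of listed nucleosomes were sharper. The nucleosome at -328 bp had its summit at exactly -327 bp in all 3 wild-type pools.

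The core genes and the other 2 genes differed in how ordered their coding nucleosomes were. Mean coding fuzziness in wild type was 40.8 ± 0.977 bp (SD, n = 3 pools) at HHT2 and 37.6 ± 0.524 bp at HHT1, above 99.9% and 95.8% of genes. It was 35.0 bp at HTA2, 34.4 bp at HHF1, 33.3 bp at HHF2, 32.4 bp at HTA1, 31.9 bp at HTB2 and 30.6 bp at HTB1. From HTA2 to HTB1, neighbours in this order differed by less than or about as much as their SDs (0.974 to 2.09 bp). HTZ1 with 26.4 ± 0.271 bp and HHO1 with 24.1 ± 1.11 bp stood below the all-gene median of 29.9 to 30.3 bp. In each of the 6 pools every core gene was fuzzier than HTZ1 and HHO1. The narrowest margin was in Ioc3-KO, with 29.5 bp at HTZ1 and 32.1 bp at the lowest core gene. This order over genes is a description of 10 genes, with no test.

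**Figure D3:**
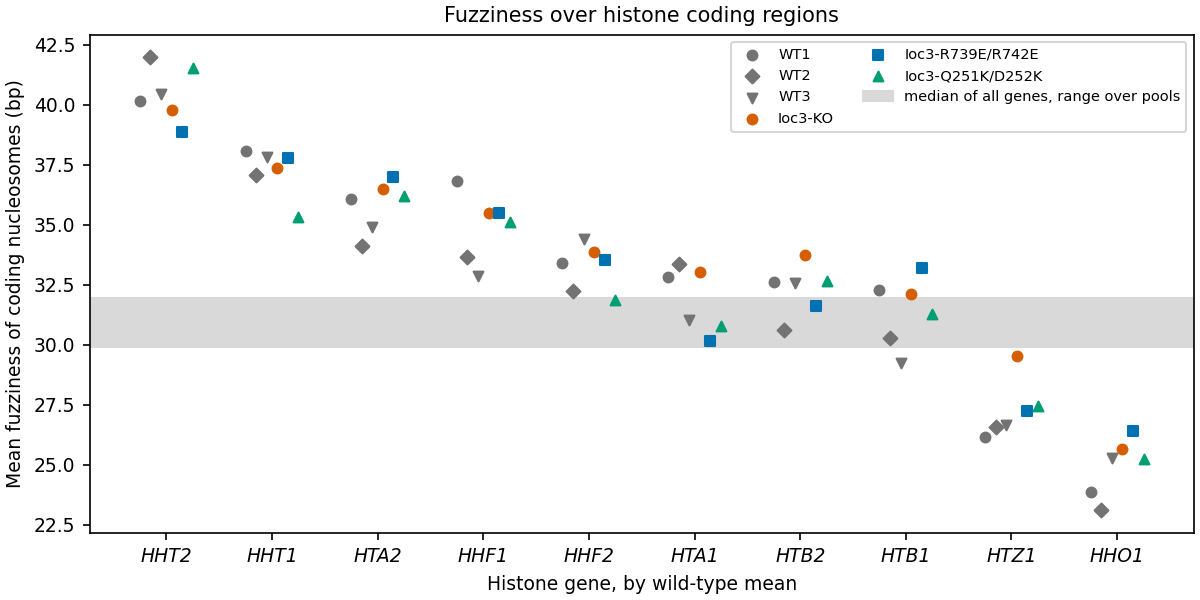
Mean fuzziness of the nucleosomes inside each histone coding region (y axis, bp) for each of the 6 pools, with genes ordered by the wild-type mean and the range of the all-gene medians as a grey band. HHT2 lies between 38.9 and 42.0 bp, and HTZ1 and HHO1 lie below the band in all 6 pools.

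HHT2 had the lowest mean coding peak, 1.05 ± 0.124 in wild type, lower than in all but 5.5% of genes, and HHT1 (1.28 ± 0.057) and HHF1 (1.31 ± 0.121) were at 17.8% and 19.4%. The H2A and H2B genes lay nearer the middle, from 36.6% at HTA2 to 62.7% at HTB2. HHO1 was at 60.9% and HTZ1 (1.33 ± 0.082) at 21.4%.

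The copies of each core histone were compared by their summit profiles. Over the 1301 bp that start 800 bp upstream of the start codon, the smoothed wild-type summit profiles of HTB1 and HTB2 had a Pearson r of 0.515. The r was 0.23 for HHT1 and HHT2, 0.123 for HHF1 and HHF2, and -0.08 for HTA1 and HTA2. The genes outside the set with profiles most like the mean of the 8 core genes were YPR127W (r = 0.739), BNA1 (0.702) and YEF1 (0.688). Neighbouring positions within a profile are not independent, and the core genes themselves enter that mean, so these r values are descriptions, with no reference value from unrelated gene pairs.

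The position of the histone nucleosomes was then compared between genotypes. At this replication no histone nucleosome passed the test in any Ioc3 genotype, and most summits lay within a few bp of wild type. The test was limma over all 68491 matched nucleosomes with a Benjamini-Hochberg adjusted p under 0.05. It called 0 of 56 in Ioc3-KO, where 1.25% of all nucleosomes were called. It also called 0 of 56 in Ioc3-R739E/R742E (0.0% of all), in Ioc3-Q251K/D252K (0.0%) and in the 3 Ioc3 pools together (0.162%). At an unadjusted p under 0.05, 3, 2, 5 and 2 of 56 passed in these comparisons, against 17.9%, 8.48%, 8.72% and 11.9% of all. The median standard error of a histone nucleosome's shift was 3.61 bp with 1 pool and 2.64 bp with 3, so small shifts were not detectable. Large shifts went uncalled too, up to -56.7 bp at HTA2 in Ioc3-Q251K/D252K (adjusted p = 0.334 with limma). The fit of a single genotype has 2 residual degrees of freedom, and p was adjusted over the genome. Thus 0 calls do not show that positions were equal or that large shifts were absent.

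The size of the shifts was close to that between wild-type pools. The median absolute shift of the 56 nucleosomes was 3.33 bp in Ioc3-KO, 3.0 bp in Ioc3-R739E/R742E and 3.17 bp in Ioc3-Q251K/D252K. Each wild-type pool against the other 2 gave 3.75, 3.5 and 2.5 bp. Over all nucleosomes the medians were 4.67, 3.33 and 3.33 bp in the Ioc3 genotypes and 2.5 to 3.0 bp in wild type, so Ioc3-KO was above the wild-type pools genome-wide and within their range at the histone genes. No difference between the histone nucleosomes and the rest was tested. By gene, the median absolute shift in Ioc3-KO ran from 2.33 bp at HTB2 and HHF2 to 4.5 bp at HTA2 and HHT2. Shifts over 20 bp were seen at 4 nucleosomes in Ioc3-KO, 4 in Ioc3-R739E/R742E and 5 in Ioc3-Q251K/D252K, and at 5, 3 and 5 in the wild-type pools.

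**Figure D4:**
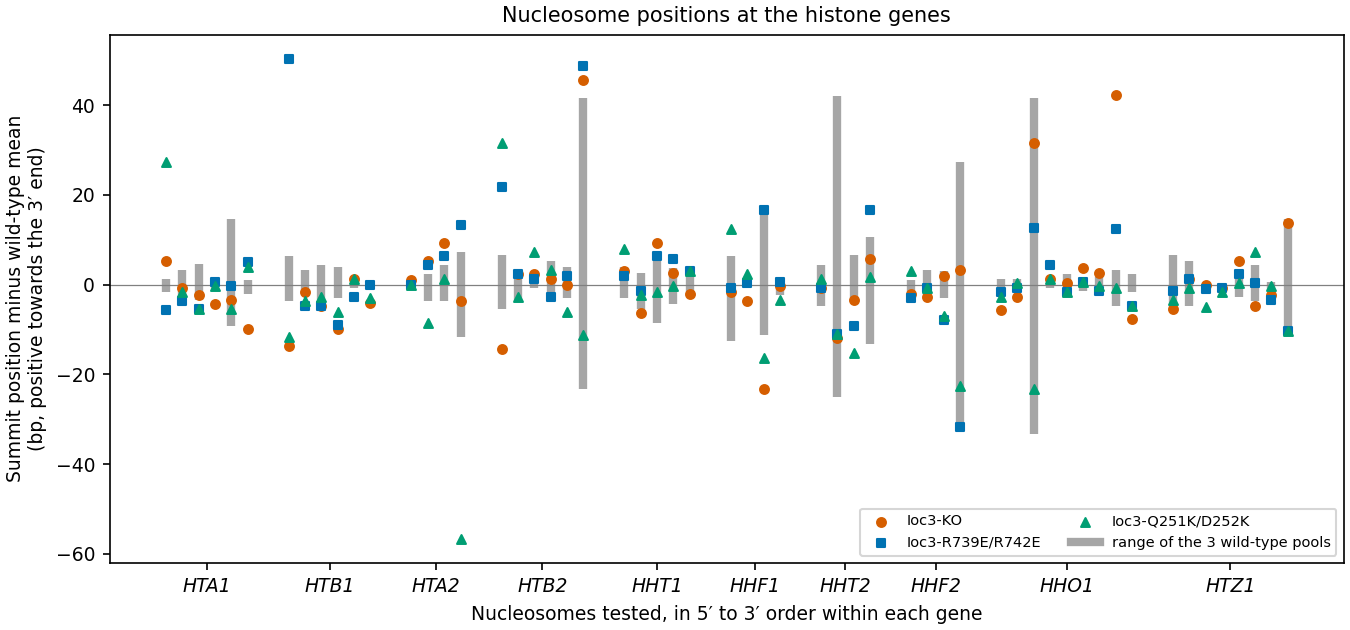
Summit position minus the wild-type mean (y axis, bp, positive towards the 3′ end) for the 56 tested nucleosomes, ordered 5′ to 3′ within each gene (x axis). Grey bars are the range of the 3 wild-type pools and symbols are the Ioc3 pools. The largest departures are 45.7 bp at HTB2 after its stop codon in Ioc3-KO (42.3 bp at HHO1 comes next), 50.3 bp at HTB1 in Ioc3-R739E/R742E and -56.7 bp at HTA2 in Ioc3-Q251K/D252K, and long grey bars mark nucleosomes that also differ among wild-type pools.

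The lowest p in Ioc3-KO was at the fourth coding nucleosome of HHO1. Its summit lay 504, 496 and 502 bp from the start codon in wild type, 543 bp in Ioc3-KO, 513 bp in Ioc3-R739E/R742E and within the wild-type range in Ioc3-Q251K/D252K. Ioc3-KO thus lay past every other pool, by 42.3 bp from the wild-type mean (SE 4.13, adjusted p = 0.0760 with limma). In the same pool the next nucleosome, at 661 bp, had no match, while the other 5 pools listed it with 77 to 96 reads. The coding spacing of HHO1 was 178 bp in Ioc3-KO and 163 to 164 bp elsewhere. The nucleosome was also fuzzier, 39.1 bp in Ioc3-KO against 29.6, 28.6 and 32.3 bp in wild type, and lower, 0.797 against 1.30, 1.44 and 1.12. In the 2 point-mutant pools it was at 35.7 and 33.7 bp and at heights of 0.936 and 0.953. Every Ioc3 pool was fuzzier and lower than every wild-type pool there, but neither difference passed the test. For the 3 Ioc3 pools together the fuzziness difference was 5.96 bp (SE 1.58, adjusted p = 0.271) and the log2 occupancy difference -0.45 (SE 0.116, adjusted p = 0.104), both with limma.

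The lowest p in Ioc3-R739E/R742E was at the faint call between HTA1 and HTB1. Its summit lay at -294, -295 and -285 bp of HTB1 in wild type, at -305 bp in Ioc3-KO, at -241 bp in Ioc3-R739E/R742E and at -303 bp in Ioc3-Q251K/D252K. It rests on 23 to 95 reads. The difference was 50.3 bp (SE 5.31, adjusted p = 0.196 with limma), and Ioc3-R739E/R742E was the pool that stood apart.

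In Ioc3-Q251K/D252K the lowest p belonged to the nucleosome at -401 bp of HTA1. Its summit lay at -403, -405 and -402 bp in wild type, -398 bp in Ioc3-KO, -409 bp in Ioc3-R739E/R742E and -376 bp in Ioc3-Q251K/D252K. The shift of 27.3 bp (SE 2.04) had an adjusted p of 0.119 with limma. With the mean read position in place of the summit it was 7.27 bp. The last nucleosome of HTA2 had the largest shift in this pool, -56.7 bp, from 390, 371 and 387 bp in wild type to 326 bp. The Ioc3-Q251K/D252K list had another call further downstream, as had WT2 and Ioc3-KO, where the HTA2 summit lay at 371 and 379 bp. The adjusted p of the shift was 0.334 with limma.

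With the 3 Ioc3 pools together the lowest p was at the nucleosome at 205 bp of HTB1. It lay at 213, 208 and 206 bp in wild type, and at 199 bp in Ioc3-KO, 203 bp in Ioc3-Q251K/D252K and between these values in Ioc3-R739E/R742E. The groups did not overlap, and the difference was -8.33 bp (SE 2.38, adjusted p = 0.350 with limma). Groups of pools that did not overlap were found at 3 of 56 histone nucleosomes, or 5.4%, against 17.4% of all nucleosomes. The other cases were the nucleosome at 47 bp of HTB2, further downstream in the Ioc3 pools (45 or 46 bp against 47 to 53 bp), and that after the stop codon of HHO1, further upstream (813 to 817 bp against 807 to 810 bp from the start codon).

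Fuzziness gave no call either. The test called 0 of 56 histone nucleosomes in Ioc3-KO (0.00146% of all), Ioc3-R739E/R742E (0.0%), Ioc3-Q251K/D252K (0.0117%) and the 3 Ioc3 pools together (0.0%). At an unadjusted p under 0.05, limma gave 12, 7, 4 and 10 of 56, or 21.4%, 12.5%, 7.14% and 17.9%, against 15.4%, 7.18%, 6.57% and 11.8% of all. The median fuzziness difference over the histone nucleosomes was 0.644 bp in Ioc3-KO, against 1.19 bp over all nucleosomes. It was 0.851 bp in Ioc3-R739E/R742E (all 0.582 bp) and -0.342 bp in Ioc3-Q251K/D252K (all 0.33 bp).

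The nucleosome over the start of HTA2, at 51 bp, had the lowest p with the 3 Ioc3 pools together. It was sharp in wild type, at 29.0, 28.6 and 28.7 bp, and wider in every Ioc3 pool, at 34.2, 33.2 and 33.2 bp. The groups stood well apart, by 4.76 bp (SE 1.19), but the adjusted p was 0.265 with limma. Its deposited height was 1.83, 1.67 and 1.95 in wild type and 1.60, 1.62 and 1.64 in the Ioc3 pools, and once divided by each pool's median the groups overlapped. The corresponding nucleosome of HTB1, at 53 bp, was at 29.4, 25.7 and 27.6 bp in wild type and 31.2, 31.1 and 29.5 bp in the Ioc3 pools. There too the groups did not overlap, by a margin of less than 0.1 bp between WT1 and Ioc3-Q251K/D252K. HHT2 went the other way: its nucleosome at 286 bp was at 39.2, 39.6 and 39.0 bp in wild type and 36.0, 35.7 and 35.3 bp in the Ioc3 pools (difference -3.60 bp, SE 1.18, adjusted p = 0.315 with limma). With groups of pools that did not overlap, 6 histone nucleosomes were fuzzier and 3 sharper in the Ioc3 pools, 16.1% in both directions against 17.5% of all (13.3% fuzzier and 4.16% sharper). At HHT1, the low nucleosome at -21 bp was wider in Ioc3-KO (45.5 bp) and Ioc3-R739E/R742E (44.0 bp) than in wild type (39.4, 37.2 and 39.0 bp), and in Ioc3-Q251K/D252K it was at 37.5 bp.

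Other nucleosomes gave the lowest p in a single genotype. In Ioc3-R739E/R742E it was the nucleosome at 522 bp of HTB2, after its stop codon, with a difference of -5.68 bp (SE 1.77, adjusted p = 0.662 with limma). In Ioc3-Q251K/D252K it was again the HTA2 nucleosome at 51 bp, with 4.44 bp (SE 1.71, adjusted p = 0.724 with limma).

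Occupancy, the log2 of peak height over the pool's median, gave calls in 1 genotype, and all of them lay at HTA1 and HTB1. In Ioc3-Q251K/D252K limma called 10 of 56 histone nucleosomes, all higher, against 0.793% of all nucleosomes. It called 0 of 56 in Ioc3-KO (0.177% of all), in Ioc3-R739E/R742E (0.0161%) and in the 3 Ioc3 pools together (0.342%). At an unadjusted p under 0.05, 10 of 56 passed in the knockout, 9 in Ioc3-R739E/R742E, 21 in Ioc3-Q251K/D252K and 18 with the 3 pools together, against 17.0%, 6.49%, 12.5% and 16.7% of all. The counts of 21 and 18 include nucleosomes of HTA1 and HTB1, which lie in a part of chromosome IV raised in Ioc3-Q251K/D252K. Nothing is read from the excess of these counts over all nucleosomes.

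The 10 calls cannot be told apart from a rise of their surroundings. HTA1 and HTB1 lie in a stretch of chromosome IV between the nucleosomes at 883792 and 982636. Its bounds were set from the log2 occupancy difference itself. From HTA1 outward, the running median of 15 nucleosomes in Ioc3-Q251K/D252K had to stay over 0.5. A high median in that pool is therefore built in and only describes the stretch. Its 575 tested nucleosomes had a median log2 occupancy difference of 0.83 in Ioc3-Q251K/D252K. In the other pools the median of that stretch was at most 0.07. The 12 tested nucleosomes of HTA1 and HTB1 had a median of 1.00, with a range from 0.76 to 1.60, so they rose with the stretch. With the stretch set to its own median, 0 of the 10 calls were left, though most of these nucleosomes kept a positive difference. The same nucleosomes had medians of 0.22 in Ioc3-KO and 0.10 in Ioc3-R739E/R742E. The cause of the raised stretch was not tested.

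**Figure D5:**
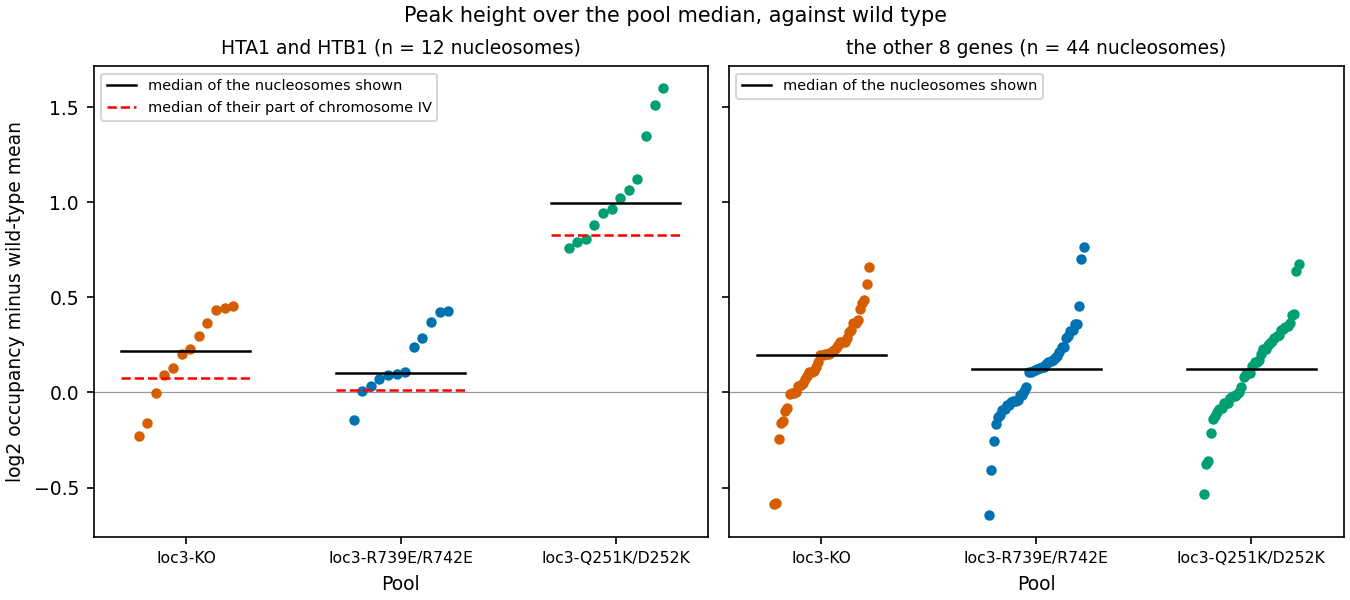
Log2 occupancy minus the wild-type mean (y axis) of each tested nucleosome of HTA1 and HTB1 (left) and of the other 8 genes (right), for the 3 Ioc3 pools (x axis). Black lines are medians and red dashed lines the median of the chromosome IV stretch. HTA1 and HTB1 stand at a median of 1.00 in Ioc3-Q251K/D252K beside a stretch at 0.83, and the other genes at 0.12.

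The nucleosome facing the promoter of HTB2, at -144 bp, came closest to a call outside that stretch. Its height was 0.945, 0.929 and 0.758 in wild type, 1.21 in Ioc3-KO, 1.16 in Ioc3-R739E/R742E and 1.35 in Ioc3-Q251K/D252K, with 70, 66 and 58 reads against 92, 82 and 103. Every Ioc3 pool was above every wild-type pool, with a log2 difference of 0.57 (SE 0.116, adjusted p = 0.0625 with limma). With the robust form of the same test the adjusted p was 0.0374, so the call depends on that choice. Its fuzziness groups overlapped, at 23.2, 24.1 and 27.6 bp in wild type and 25.2, 21.4 and 23.7 bp in the Ioc3 pools. The partner nucleosome at -141 bp of HTA2 did not separate the groups (1.58, 1.43 and 1.79 against 1.71, 1.48 and 1.88).

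The last nucleosome before the start codon, within 200 bp of it, was looked at in each gene. It was tested in 9 of the histone genes. That of HHO1, at -151 bp, was matched in 5 pools and was not tested. In 5 of the 9 (HTA1, HTB1, HTB2, HHF2 and HTZ1) every Ioc3 pool was above every wild-type pool, and in 0 every Ioc3 pool was below. Over the 4476 genes with such a nucleosome, 30.0% were above and 1.47% below, a direction shared with the genome at large. HTA1 and HTB1 lie in the stretch of chromosome IV raised in Ioc3-Q251K/D252K, so the place of that pool there is not judged. At HTA1, Ioc3-KO was only just above WT3 (log2 occupancy -0.21 against -0.24). At HTZ1 the sharp nucleosome at -62 bp had heights of 2.42, 2.31 and 2.24 in wild type and 2.80, 2.43 and 2.98 in the Ioc3 pools. At HHF2 the nucleosome at -137 bp was at 1.23, 1.25 and 0.856 in wild type and at 1.25, 1.36 and 1.65 in the Ioc3 pools, with WT2 and Ioc3-KO nearly equal. Over all 56 histone nucleosomes, 13 were higher and 1 lower in every Ioc3 pool, or 25.0%, against 21.6% of all nucleosomes (13.5% higher and 8.1% lower). The 13 include those at 530 and -115 bp of HTB1 and at -92 bp of HTA1, in the raised stretch.

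Outside HTA1 and HTB1, no occupancy difference of a single genotype passed the test. The lowest p in Ioc3-KO was at the fourth HHO1 nucleosome described above (log2 difference -0.58, SE 0.166, adjusted p = 0.151 with limma). In Ioc3-R739E/R742E it was at the nucleosome at -21 bp of HHT1, with a height of 0.354 against 0.563, 0.517 and 0.642 in wild type (log2 difference -0.65, SE 0.164, adjusted p = 0.491 with limma). The height in Ioc3-KO, 0.499, was just below the wild-type heights. Its log2 occupancy of -1.51 was within the wild-type range (-1.43, -1.58 and -1.24). Ioc3-Q251K/D252K, with a height of 0.564 and a log2 occupancy of -1.39, was within both ranges.

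The width of the promoter gap, the widest distance between neighbouring summits that overlaps the 500 bp before the start codon, was compared over 6000 genes. The all-gene median in wild type was 218 bp. HHT1 and HHF1, with 275, 259 and 280 bp in wild type and 264, 267 and 256 bp in the Ioc3 pools, had the widest gap of the 4 couples in wild type with all calls kept, though not without weak calls (mean 275 bp, against 301 bp at HTA1 and 348 bp at HTA2), and the groups overlapped. HTA1 had 179, 175 and 181 bp in wild type and 175, 183 and 182 bp in the Ioc3 pools. With all calls kept, 12.1% of genes were narrower than HTA1 in wild type. Without weak calls 68.1% were, so its rank depends on the faint calls. HTA2 had 216, 187 and 194 bp against 209, 196 and 183 bp. At both genes the stretch measured differed between pools. At HTA1 it ran from -91 to 88 bp in WT1 and from -260 to -85 bp in WT2. At HTA2 it ran from -358 to -142 bp in WT1, -140 to 47 bp in WT2 and -558 to -349 bp in Ioc3-KO. The gaps of HTZ1, 180, 350 and 266 bp in wild type, varied with whether a faint call inside the gap was listed.

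Limma called 1 of the 10 histone genes in Ioc3-Q251K/D252K, against 5.55% of all genes. It called 0 of 10 in Ioc3-KO (5.53%), Ioc3-R739E/R742E (5.08%) and the 3 Ioc3 pools together (0.8%). At an unadjusted p under 0.05 limma gave 0 of 10 in the knockout (10.3% of all), 0 in Ioc3-R739E/R742E (9.37%), 2 in Ioc3-Q251K/D252K (9.78%) and 0 with the 3 pools together (3.25%). The call was HHF2. Its gap was 229, 227 and 221 bp in wild type, 224 bp in Ioc3-KO, 227 bp in Ioc3-R739E/R742E and 153 bp in Ioc3-Q251K/D252K (difference -72.7 bp, SE 5.62, adjusted p = 0.0314). These widths were not taken over the same stretch in each pool. The widest distance ran from -722 to -493 bp in WT1 and from -136 bp to 91 and 85 bp in WT2 and WT3. In Ioc3-Q251K/D252K it ran from -507 to -354 bp. The Ioc3-Q251K/D252K list alone had a further nucleosome near the HHF2 start codon, with a height of 0.776, 113 reads and a fuzziness of 42.0 bp. The summits on either side of that nucleosome stayed within the wild-type range or close to it, at -134 bp against -139 to -136 bp and at 87 bp against 85 to 91 bp. With any 1 wild-type pool left out the adjusted p was 0.0847 to 0.156, and with 800 bp before the start codon searched the difference was -26.0 bp (adjusted p = 0.613). HHO1 had the largest difference of the 10 genes, from 182, 167 and 219 bp to 294 bp in Ioc3-Q251K/D252K, where the faint call near -151 bp was not listed, and its adjusted p was 0.376.

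Since faint calls set several of these widths, the gaps were also measured without calls under 0.33 of the pool's median height, a choice made after the values were seen. HHO1 then had 323, 326 and 326 bp in wild type and 329, 330 and 326 bp in the Ioc3 pools. HHF2 had 229, 227 and 221 bp in wild type and 224, 227 and 220 bp in the Ioc3 pools, and was no longer called in Ioc3-Q251K/D252K. HTZ1 had 340, 350 and 346 bp in wild type and 265 bp in the knockout, 266 bp in Ioc3-R739E/R742E and 269 bp in Ioc3-Q251K/D252K. With all calls kept WT3 had 266 bp, close to these values of the Ioc3 pools, so the limit decides whether WT3 stands apart from them. The entry concerned lies near -590 bp. It was listed in the 3 Ioc3 pools at heights of 0.758, 0.758 and 0.662, in WT3 at 0.451, just under the limit, and in neither WT1 nor WT2. In the 3 Ioc3 pools it ends the stretch that starts at -328 bp, and the widest distance left is that from -328 to -62 bp. The neighbouring nucleosome at -672 bp ran from 1.49 to 2.11 in height in wild type and was at 1.15, 1.60 and 1.24 in the Ioc3 pools, and these ranges overlapped. In Ioc3-KO the log2 occupancy difference at -672 bp was -0.74 with WT1 left out (adjusted p = 0.0393 with limma) and -0.59 without the weakest quartile of nucleosomes (adjusted p = 0.0434), and was not called with all pools and nucleosomes. Without the faint calls, HTA1 and HTB1 shared a gap of 305, 298 and 301 bp in wild type. It was 305 bp in Ioc3-KO and 291 bp in Ioc3-R739E/R742E, and 182 and 186 bp in Ioc3-Q251K/D252K, where the faint call, at 0.702, was above the limit. That call lies in the raised stretch of chromosome IV, so the narrower gap cannot be told apart from the rise of that stretch. Limma then called 1 of the 10 histone genes in Ioc3-KO (3.68% of all genes), 0 in Ioc3-R739E/R742E (1.38%), 3 in Ioc3-Q251K/D252K (3.02%) and 1 with the 3 pools together (0.45%), and nothing is read from these counts.

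Reads over the coding regions stood out at the same genes as occupancy. HTB1 had 408, 395 and 432 reads in wild type, 442 in Ioc3-KO, 449 in Ioc3-R739E/R742E and 761 in Ioc3-Q251K/D252K. HTA1 had 271, 284 and 336 reads in wild type and 306, 288 and 532 in the Ioc3 pools. Both stood out in Ioc3-Q251K/D252K, with log2 differences of 0.92 (adjusted p = 0.00891) and 0.88 (adjusted p = 0.0714) by edgeR's quasi-likelihood test over 5983 genes, in the raised stretch. That test called 1 of 10 histone genes in Ioc3-Q251K/D252K (1.04% of all genes), and 0 of 10 in Ioc3-KO (0.1%), Ioc3-R739E/R742E (0.0%) and the 3 Ioc3 pools together (0.1%). At an unadjusted p under 0.05 it gave 1 of 10 in the knockout (12.3% of all genes), 0 in Ioc3-R739E/R742E (5.87%), 2 in Ioc3-Q251K/D252K (9.49%) and 0 with the 3 pools together (11.1%). The 1 case in Ioc3-KO was HHO1, with 601, 605 and 626 reads in wild type and 524 in Ioc3-KO (log2 difference -0.21, adjusted p = 0.323), the gene with 1 coding nucleosome fewer in that list.

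The 28 genes that control or carry histones were examined the same way, as 572 tested nucleosomes. In Ioc3-KO limma called 10 of them for position, 5 downstream and 5 upstream, beside 1.25% of all nucleosomes. Of the 10, 5 lay in TOM1, the gene of a ubiquitin ligase for excess histones, with shifts from -68.3 to 63.3 bp. TOM1 is a long gene, and these 5 lay from 403 to 9853 bp after its start codon. Another lay at -618 bp of SPT10, the activator of the core genes (-63.0 bp, adjusted p = 0.0351). RLF2 and CAC2, subunits of the chromatin assembly factor CAF-1, had 1 each (45.7 bp, adjusted p = 0.0355, and -57.7 bp, adjusted p = 0.0365). The CAC2 nucleosome at 867 bp was called with the 3 Ioc3 pools together as well (-56.3 bp, SE 2.69, adjusted p = 0.00625 with limma). Its summit was at 69165, 69163 and 69160 on chromosome XIII in wild type and at 69105 in the knockout, 69103 in Ioc3-R739E/R742E and 69111 in Ioc3-Q251K/D252K, so all 3 genotypes lay apart from all 3 wild-type pools. The larger shifts among these regulator calls came close to the matching limit of 70 bp. The regulator calls were not examined under the other settings.

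In the other measures few regulators were called. No regulator nucleosome was called for position in the 2 point mutants, where 51 (8.92%) and 42 (7.34%) of 572 had an unadjusted p under 0.05 with limma, against 8.48% and 8.72% of all nucleosomes. For fuzziness 0 were called in any comparison. At an unadjusted p under 0.05 there were 101 (17.7%), 31 (5.42%), 37 (6.47%) and 59 (10.3%), against 15.4%, 7.18%, 6.57% and 11.8% of all. For occupancy 2 of 572 were called in Ioc3-Q251K/D252K (0.793% of all) and 2 with the 3 pools together (0.342%). In Ioc3-Q251K/D252K a faint nucleosome after the stop codon of SPT21, the partner of Spt10, was lower (log2 difference -1.13, adjusted p = 0.0274) and one after the stop codon of SWI4, the DNA-binding subunit of SBF, was higher (1.00, adjusted p = 0.0362). With the 3 Ioc3 pools together the SWI4 nucleosome (0.89, adjusted p = 0.0203) and one at -281 bp of HPC2, a HIR complex subunit (0.82, adjusted p = 0.0348), were higher. Gaps were called in 1 of 28 regulators in Ioc3-KO (3.57%, against 5.53% of all genes), 2 in Ioc3-R739E/R742E (7.14%, against 5.08%), 1 in Ioc3-Q251K/D252K (3.57%, against 5.55%) and 0 with the 3 pools together (0.8% of all). The promoter gap of POB3, a subunit of the FACT chaperone, was wider by 93.3 bp in Ioc3-R739E/R742E (adjusted p = 0.0164) and 95.3 bp in Ioc3-Q251K/D252K (adjusted p = 0.0183). That of PSH1, a ligase for the centromeric H3, was wider by 59.3 bp in Ioc3-KO (adjusted p = 0.0369) and 53.3 bp in Ioc3-R739E/R742E (adjusted p = 0.0478). These genotypes share the wild-type pools, so the values are not independent of each other. The gap of POB3 was 176 bp in Ioc3-KO, against 181, 177 and 181 bp in wild type. That of PSH1 was 181 bp in Ioc3-Q251K/D252K, against 177, 176 and 171 bp in wild type. Whether faint calls set these regulator widths was not examined. Coding reads gave 0 calls among the 28 genes with edgeR, and 2, 1, 2 and 0 at an unadjusted p under 0.05, against 12.3%, 5.87%, 9.49% and 11.1% of all genes.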

How the data were processed

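MNase-seq of 12 samples was used as 6 nucleosome lists, each joining both replicates of a group as deposited. Per the submitters' processing notes, the authors used Trimmomatic, Bowtie2 and SAMtools with sacCer3. Tool versions, the nucleosome caller and the handling of duplicate or multiply placed reads were not given in the sources used. Per the file headers, an entry holds a summit, the mean and the standard deviation of its read positions (the fuzziness, a score in bp). Peak height is the authors' signal at the summit, per the file headers, in an unstated unit. Each count of reads per nucleosome is a whole number as deposited, with nearly equal totals between lists, and scaling is not stated. The coordinate base is unknown but common to all pools.

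Gene coordinates came from the RefSeq R64 table, which has no transcription starts, and no genome sequence was used. Summits of the 6 pools were joined and smoothed (Gaussian SD 20 bp), and maxima at least 80 bp apart became consensus positions. Each pool's mutual nearest summit within 70 bp was matched, and a maximum between 2 summits could match none. Shared promoter positions went to the nearer gene. Limma 3.58.1 (lmFit, eBayes; R 4.3.3) was fitted with genotype as the only factor. For 1 Ioc3 pool the spread comes from the 3 wild-type pools (2 residual degrees of freedom) and the lone pool is assumed to vary like them, and the fit of 3 against 3 pools has 4. Coding reads were tested with edgeR 4.0.16 (TMM, filterByExpr, quasi-likelihood), with DESeq2 1.42.0 as an alternative. Python 3.11.15, numpy 2.4.6, pandas 2.3.3, scipy 1.17.1 and matplotlib 3.10.9 did the rest, and the tests were tried on simulated data. P-values were adjusted genome-wide and measure the spread between pools. The genes, lists and rules were chosen with earlier results of these data known. Named were all 10 genes, with their called nucleosomes, those flanking the promoter gap and the lowest p per comparison, up to 4 regulators per comparison and the 3 most alike profiles. Other nucleosomes, such as those whose groups did not overlap, were named after their values were seen.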

Additional observations from a re-analysis of the deposited data

How the results depend on the processing

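No paired analysis was possible because both replicates of a group are joined in 1 list. No histone nucleosome was called for position under any alternative run. Counts of called histone features moved as follows, by limma unless stated. Occupancy in Ioc3-Q251K/D252K went from 10 to 6 without centring on the pool median and to 0 with the chromosome IV stretch set to its own median. There, HTB1 at 53 bp went from a log2 difference of 0.81 to -0.01814 and HTA1 at -401 bp from 0.76 to -0.06558. The other nucleosomes that had been called kept a positive difference under every setting. Their lowest values ran from 0.05 (HTA1 at 414 bp) to 0.78 (HTA1 at -257 bp). Occupancy in Ioc3-KO went from 0 to 1 (HTZ1 at -672 bp) without the weakest quartile of nucleosomes, and for the 3 Ioc3 pools together from 0 to 1 with robust eBayes (HTB2 at -144 bp) and to 1 without the weakest quartile (HTB1 at -115 bp). Gap calls in Ioc3-Q251K/D252K went from 1 to 0 with 800 bp searched and to 3 without weak calls (HTA1, HTB1, HTZ1). Without weak calls, 1 gap (HTZ1) was called in Ioc3-KO and 1 with the 3 pools together, up from 0. That limit was set after the values were seen and decides whether WT3 stands apart from the Ioc3 pools at HTZ1, and the HTA1 and HTB1 gaps cannot be told apart from the raised stretch. The HTB1 gap difference in Ioc3-R739E/R742E, not called, went from -10.0 bp to 1.333 bp with 800 bp searched.

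Leaving out 1 pool in turn gave 0 to 1 calls for fuzziness in Ioc3-KO (HTB1 at -296 bp without WT2, HHO1 at -452 bp without WT3). It gave 0 to 1 for occupancy in Ioc3-KO (HTZ1 at -672 bp without WT1, HHF2 after its stop codon without WT2) and 0 to 1 in Ioc3-R739E/R742E (the same HHF2 nucleosome without WT2). It gave 0 in each case for the gap in Ioc3-Q251K/D252K, and 0 (without WT1) to 2 (HTA1 and HTB1, without WT3) for coding reads there with edgeR. Such fits leave 1 residual degree of freedom for a single genotype. The other 156 counts stayed within 1.5 times the reported value. Of the histone values named singly, 237 kept their side of the threshold, 18 lost it, 1 gained it and 3 changed sign. Depth limits the faint promoter calls, which rest on 6 to 95 reads, and the replicates are joined, so no within-group spread of an Ioc3 genotype was available.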
